A study of Mus musculus with 10 samples.

Results

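Immune checkpoint genes encode receptors on lymphocytes and myeloid cells, and the ligands of those receptors, that raise or lower the activity of T cells. The 10 genes described here were chosen by name from the 55385 rows of the count table, and each name matched 1 row. The ligands are Cd274 (PD-L1) and Pdcd1lg2 (PD-L2), which bind PD-1, Cd80 and Cd86 (B7-1 and B7-2), which bind CD28 and CTLA-4, and Vsir (VISTA), which acts as a ligand and as a receptor. The receptors are Pdcd1 (PD-1), Ctla4, Lag3, Havcr2 (TIM-3) and Tigit. PD-1 and CTLA-4 are the targets of the antibodies used as checkpoint blockade in cancer. In tumours PD-L1 is found on tumour cells and on infiltrating myeloid cells and is induced by interferon gamma, whereas PD-1, CTLA-4, LAG-3 and TIGIT are known mainly from T cells and natural killer cells.

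RNA was sequenced from 5 samples labelled IL6 shRNA1, whose genotype label is IL6 knockdown, and from 5 control samples labelled WT (control shRNA), which carried a non-mammalian shRNA in the pLKO.1-puro vector. All come from a single line of mouse ovarian tumour cells, co-mutated in Arid1a and Pik3ca, written APV245 in the sample labels and APC245 in the design, and all have the labels "no treatment" and batch 1. The sample labels describe culture in DMEM with serum, whereas the design describes tumours of the line grown under the skin, so leukocyte transcripts of the host can be part of the RNA. The labels do not say whether the samples came from separate animals or cultures, and p-values measure the spread between these samples. The IL6 shRNA1-labelled libraries held 17905397 to 19934278 counts and the control libraries 18224751 to 22682346.

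The transcript targeted by the shRNA was no lower in the IL6 shRNA1-labelled libraries. Il6, the gene of the cytokine interleukin-6, was at 1.73 ± 0.41 CPM (counts scaled to library size with TMM factors) in them and at 1.26 ± 0.64 CPM in control libraries (SD, n = 5 each; 9 to 48 counts; edgeR adjusted p = 0.436). Directions below are therefore those of the libraries as labelled. Genes listed as markers of the line were not checked in the line by itself. Of them, Wt1 (83.0 CPM in IL6 shRNA1 and 90.5 CPM in control libraries), Krt8 (71.0 CPM in IL6 shRNA1 and 53.0 CPM in control libraries) and Upk3b (120 CPM in IL6 shRNA1 and 58.9 CPM in control libraries) were detected in both groups, and Pax8 had 0 to 2 counts. Group means of Epcam, Krt7, Krt18, Muc16 and Cdh1 were low, from 1.69 CPM (Muc16 in control libraries) to 10.4 CPM (Cdh1 in IL6 shRNA1). Of 9 tested markers of the line, 8 had positive fold changes, with a median log2 fold change of 0.56. The 1 called higher, against 5.62% of all genes tested, was Upk3b (edgeR adjusted p = 0.0415), a call that ended in 7 of the 10 fits with 1 library left out. The summed level of the line markers was 340 to 358 CPM in the IL6 shRNA1-labelled libraries and 133 to 330 CPM in control libraries, without overlap. The part of these levels in the results below was not tested. Ptprc, the gene of the pan-leukocyte protein CD45, was also present, at 74.6 to 140 CPM in the IL6 shRNA1-labelled libraries and 25.3 to 98.8 CPM in control libraries. It lies on chromosome 1, where 268 of 917 genes tested were called higher. The part of that shift in its level was not tested. In bulk RNA, more cells of a type and more RNA per cell cannot be told apart.

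All 10 checkpoint genes passed the count filter, and all 10 had a positive fold change, with a median log2 fold change of 1.00 against -0.01 over the 15064 genes tested. The B7 ligand genes Cd80 and Cd86 and the receptor gene Havcr2 rose in the IL6 shRNA1-labelled libraries, 2.17-fold, 2.37-fold and 1.98-fold, at an edgeR adjusted p under 0.05. The other 7 did not pass, and 0 fell (0 lower at an unadjusted p under 0.05 too). Of all genes tested, 5.62% were called higher and 6.16% lower. At an unadjusted p under 0.05, 2335 of the 15064 genes were higher and 2358 lower. For the same 3 genes the ranges of the groups were separate in CPM, while 4.81% of all genes tested were higher and 6.13% lower without overlap. In FPKM the groups overlapped for Havcr2. These calls rest on small margins. With 1 library left out at a time, 5 of the 10 genes were called without IL6 shRNA1 library 1, 6 without control library 1, 3 without control library 3, 1 each without control libraries 2 and 4, and 0 without IL6 shRNA1 library 2, 3, 4 or 5 or control library 5. None was called with a pan-leukocyte score per library as covariate, with the replicate number as a block, or without the 3 libraries farthest out on the first principal component.

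**Figure D1:**
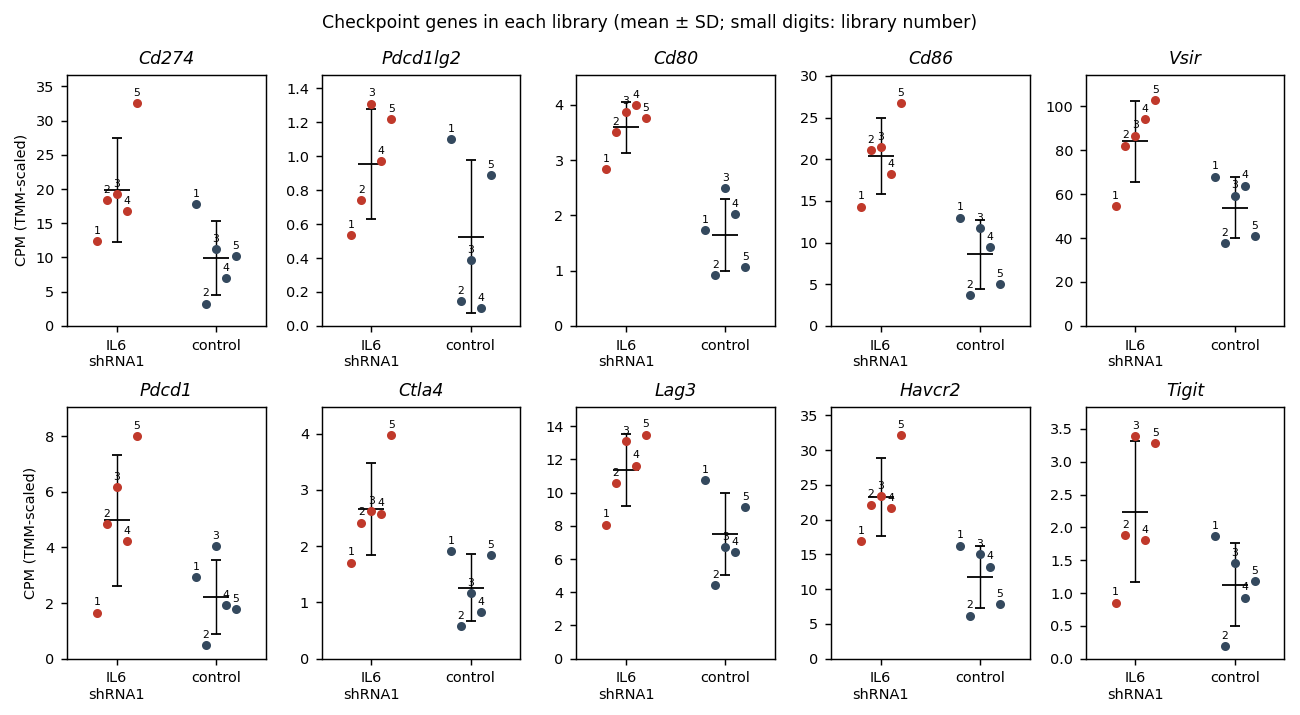
Each panel shows 1 checkpoint gene, with CPM on a linear axis from 0, a point for each library labelled with its number, and the mean with its SD (n = 5 per group). The ranges of the groups are separate for Cd80, Cd86 and Havcr2 and overlap for the other 7 genes, and library 1 is the lowest of the IL6 shRNA1-labelled libraries in all 10 panels.

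Cd80 (ENSMUSG00000075122, chromosome 16) encodes the B7 ligand with the higher affinity for CTLA-4. It stood at 2.83, 3.51, 3.88, 3.99 and 3.76 CPM in IL6 shRNA1 libraries 1 to 5, against 1.74, 0.925, 2.49, 2.02 and 1.07 CPM in control libraries 1 to 5. The lowest IL6 shRNA1 library lay above the highest control library. Its log2 fold change of 1.12 ± 0.27 (SE; 95% interval 0.53 to 1.70) passed the threshold (edgeR adjusted p = 0.0245). The counts behind these values ran from 18 to 82 per library. Leaving out any 1 of IL6 shRNA1 libraries 2, 3, 4 and 5 ended the call (adjusted p = 0.0543, 0.0538, 0.0516 and 0.0520), as did leaving out control library 5 (0.0557).

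Cd86 (ENSMUSG00000022901, chromosome 16) encodes the B7 ligand that antigen-presenting cells carry before activation. It was at 14.3, 21.1, 21.5, 18.2 and 26.8 CPM in IL6 shRNA1 libraries 1 to 5, against 12.98, 3.65, 11.7, 9.47 and 5.04 CPM in control libraries 1 to 5. The gap between the groups was narrow, between IL6 shRNA1 library 1 and control library 1. It had the highest log2 fold change of the 10 genes, 1.24 ± 0.33 (SE; 95% interval 0.52 to 1.97; edgeR adjusted p = 0.0374). Leaving out any 1 of IL6 shRNA1 libraries 2, 3, 4 and 5 ended the call (adjusted p = 0.0765, 0.0745, 0.0613 and 0.0827), as did leaving out control library 2, 4 or 5 (0.0502, 0.0596 and 0.0812). Per length, Cd86 was the more abundant B7 gene, at 5.57 ± 1.24 FPKM against 0.974 ± 0.154 FPKM for Cd80 in the IL6 shRNA1-labelled libraries (SD, n = 5).

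Havcr2 (ENSMUSG00000020399, chromosome 11) encodes TIM-3, an inhibitory receptor of exhausted T cells that macrophages and dendritic cells also carry. It was at 16.9, 22.2, 23.4, 21.7 and 32.2 CPM in IL6 shRNA1 libraries 1 to 5, against 16.3, 6.18, 14.99, 13.2 and 7.83 CPM in control libraries 1 to 5. Here too IL6 shRNA1 library 1 lay just above control library 1, and IL6 shRNA1 library 5 stood highest. In the deposited FPKM the order of the first pair was reversed, at 5.89 in IL6 shRNA1 library 1 and 6.21 in control library 1. The separation of the groups for Havcr2 therefore depends on the scaling. The log2 fold change was 0.99 ± 0.27 (SE; 95% interval 0.39 to 1.58; edgeR adjusted p = 0.0413). Leaving out any 1 of IL6 shRNA1 libraries 2, 3, 4 and 5 ended the call (adjusted p = 0.0777, 0.0787, 0.0689 and 0.0910), as did leaving out control library 2, 4 or 5 (0.0654, 0.0600 and 0.0936). The gene of its ligand galectin-9, Lgals9, was called as well, at 99.9 ± 12.3 CPM in the IL6 shRNA1-labelled libraries and 61.1 ± 14.6 CPM in control libraries (SD, n = 5; log2 fold change 0.71, edgeR adjusted p = 0.0182), although its groups overlapped, since IL6 shRNA1 library 1 (78.6 CPM) lay below control library 1 (80.8 CPM).

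Cd274 (ENSMUSG00000016496) and Pdcd1lg2 (ENSMUSG00000016498) lie next to each other on chromosome 19, at 29367455 to 29388095 and 29410919 to 29471161. Cd274, the PD-L1 gene, was at 12.4, 18.4, 19.3, 16.8 and 32.55 CPM in IL6 shRNA1 libraries 1 to 5, against 17.8, 3.26, 11.2, 7.03 and 10.2 CPM in control libraries 1 to 5. Control library 1 lay above IL6 shRNA1 libraries 1 and 4, so the groups overlapped. The mean was 19.9 ± 7.56 CPM in the IL6 shRNA1-labelled libraries and 9.90 ± 5.40 CPM in control libraries (SD, n = 5), a log2 fold change of 1.00 ± 0.40 (SE; 95% interval 0.11 to 1.90) that did not pass (edgeR adjusted p = 0.124). It did pass without control library 1 (adjusted p = 0.0482) and with DESeq2 (0.0366). Pdcd1lg2, the PD-L2 gene, was the least abundant of the 10 genes per length, at 0.489 ± 0.170 FPKM in the IL6 shRNA1-labelled libraries and 0.268 ± 0.230 FPKM in control libraries. Its 2 to 26 counts per library left a log2 fold change of 0.85 with a 95% interval from -0.35 to 2.05 (edgeR adjusted p = 0.314).

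Vsir (ENSMUSG00000020101, chromosome 10) encodes VISTA, a ligand and receptor known from myeloid cells, and was the most abundant of the 10 genes. It was at 54.5, 82.1, 86.7, 94.3 and 103 CPM in IL6 shRNA1 libraries 1 to 5, against 68.1, 37.5, 59.3, 63.9 and 40.9 CPM in control libraries 1 to 5. IL6 shRNA1 library 1 lay below 3 of the control libraries, and the other 4 libraries with that label lay above all 5 controls. The log2 fold change of 0.64 ± 0.20 (SE; 95% interval 0.19 to 1.09) missed the threshold (edgeR adjusted p = 0.0662) and passed it without IL6 shRNA1 library 1 (0.0209) and with DESeq2 (0.0168).

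The receptor genes other than Havcr2 did not pass. Pdcd1 (ENSMUSG00000026285, chromosome 1) was at 1.66, 4.84, 6.17, 4.23 and 7.99 CPM in IL6 shRNA1 libraries 1 to 5, against 2.93, 0.487, 4.04, 1.91 and 1.78 CPM in control libraries 1 to 5. IL6 shRNA1 library 1 fell among the controls, and the log2 fold change was 1.15 ± 0.50 (SE; edgeR adjusted p = 0.149). Ctla4 (ENSMUSG00000026011, chromosome 1), the receptor that competes with CD28 for CD80 and CD86, was at 1.71, 2.42, 2.62, 2.58 and 3.97 CPM in IL6 shRNA1 libraries 1 to 5, against 1.91, 0.584, 1.16, 0.828 and 1.84 CPM in control libraries 1 to 5. Its log2 fold change was 1.07 ± 0.34 (SE; edgeR adjusted p = 0.0644), and it passed without IL6 shRNA1 library 1 (0.0382), without control library 1 (0.0423) and with DESeq2 (0.0186). Pdcd1 and Ctla4 lie on a chromosome on which 268 of 917 genes tested (29.2%) were called higher and 1 lower, with a median log2 fold change of 0.32. The part of that shift in their values was not tested.

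Lag3 and Tigit overlapped between the groups as well. Lag3 (ENSMUSG00000030124, chromosome 6), a receptor related to CD4 that binds MHC class II, was at 8.07, 10.6, 13.1, 11.6 and 13.5 CPM in IL6 shRNA1 libraries 1 to 5, against 10.8, 4.43, 6.74, 6.41 and 9.13 CPM in control libraries 1 to 5. It had the smallest log2 fold change of the 10 genes, 0.60 ± 0.23 (SE; edgeR adjusted p = 0.105), and passed without control library 1 (0.0433). It lies on a chromosome on which 216 of 797 genes tested were called lower and 21 higher, with a median log2 fold change of -0.23. Tigit (ENSMUSG00000071552, chromosome 16), the receptor that competes with CD226 for CD155, was at 0.855, 1.88, 3.38, 1.80 and 3.28 CPM in IL6 shRNA1 libraries 1 to 5, against 1.87, 0.195, 1.46, 0.931 and 1.19 CPM in control libraries 1 to 5. Its 4 to 62 counts per library gave a log2 fold change of 0.98 with a 95% interval from -0.12 to 2.07 (edgeR adjusted p = 0.203).

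Compared per gene length, the order of the 10 genes began with Vsir and Havcr2 and ended with Ctla4, Cd80 and Pdcd1lg2 in both groups. In the IL6 shRNA1-labelled libraries, Vsir led with 16.8 ± 3.89 FPKM (SD, n = 5) and Havcr2 followed with 8.55 ± 1.98 FPKM. Cd86 (5.57 ± 1.24), Cd274 (5.48 ± 1.99) and Lag3 (5.41 ± 1.1 FPKM) stood within each other's spread. Pdcd1 (2.59 ± 1.19) and Tigit (2.45 ± 1.17 FPKM) also did, and so did Ctla4 (1.14 ± 0.34) and Cd80 (0.974 ± 0.154 FPKM). The range of every neighbouring pair in this order overlapped except that of Cd80 and Pdcd1lg2. In control libraries Vsir led with 10.9 ± 3.27 FPKM, its range clear of that of Havcr2 (4.36 ± 1.85 FPKM), and Lag3 (3.56 ± 1.22), Cd274 (2.76 ± 1.59) and Cd86 (2.39 ± 1.23 FPKM) again overlapped.

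The 10 genes varied together from library to library. Library 1 was the lowest of the IL6 shRNA1-labelled libraries for all 10 genes, and library 5 was the highest of all 10 libraries for 7 of them. Control library 2 was the lowest of all libraries for 9 genes, the exception being Pdcd1lg2, which was lowest in control library 4. Control library 1 was the highest control for 8 genes, with control library 3 highest for Cd80 and Pdcd1. Some leukocyte markers shared these high and low libraries and others did not. Csf1r, the macrophage growth factor receptor gene, was at 205 CPM in IL6 shRNA1 library 1 and 327 CPM in IL6 shRNA1 library 5, and at 100.2 CPM in control library 2. Cd3e, a subunit of the T cell receptor complex, was at 1.66, 4.71 and 0.536 CPM in those 3 libraries. Trac, the constant region gene of the T cell receptor alpha chain, ran the other way, at 26.1, 19.05 and 27.9 CPM in them, and IL6 shRNA1 library 5 was its lowest of all 10.

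**Figure D2:**
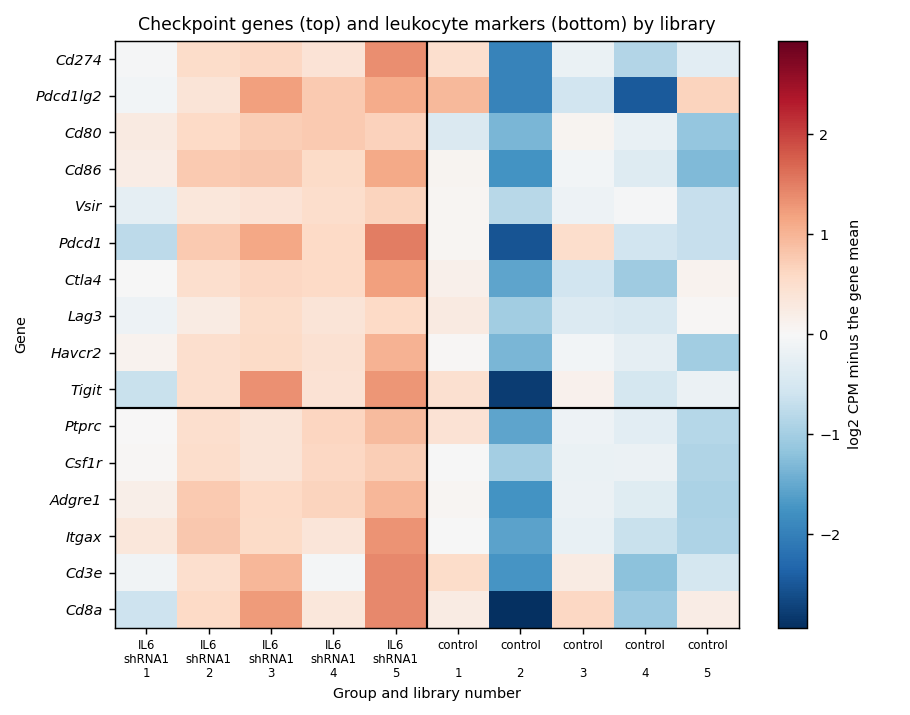
The colour shows log2 CPM minus the mean of the gene over the 10 libraries, for the 10 checkpoint genes above the line and for 6 leukocyte markers below it, with the IL6 shRNA1-labelled libraries left of the control libraries. Control library 2 is the bluest column in both blocks, and IL6 shRNA1 library 5 is the reddest.

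Most macrophage and monocyte markers were called higher in the IL6 shRNA1-labelled libraries, whereas few dendritic cell and no neutrophil markers were. Over all genes tested, 5.62% were called higher, and 2335 of 15064 were higher at an unadjusted p under 0.05. The median fold change of the dendritic cell list was not below that of the macrophage and monocyte list. Of 15 macrophage and monocyte markers, 11 were called higher and 0 lower, with a median log2 fold change of 1.12. That count was 0 without IL6 shRNA1 library 2, 3, 4 or 5 or control library 5, and it was 5, 7 and 4 without control libraries 2, 3 and 4. It was 13 with DESeq2, 1 without the 3 farthest libraries, and 0 with no low-count filter, with the replicate block and with the pan-leukocyte covariate. Their summed level was 1852 to 3137 CPM in the IL6 shRNA1-labelled libraries and 821 to 1921 CPM in control libraries. Csf1r (276 CPM in IL6 shRNA1 and 151 CPM in control libraries), Adgre1, which encodes F4/80 (109 CPM in IL6 shRNA1 and 49.1 CPM in control libraries), and the integrin gene Itgam (18.7 CPM in IL6 shRNA1 and 9.48 CPM in control libraries) were among those called, whereas Cd68 was not (104 CPM in IL6 shRNA1 and 85.8 CPM in control libraries; edgeR adjusted p = 0.0806). The 10 dendritic cell markers had a median log2 fold change of 1.26, with 6 higher and 0 lower at an unadjusted p under 0.05. Their sums ran from 95.4 to 201 CPM in IL6 shRNA1 and from 30.1 to 90.9 CPM in control libraries, without overlap. Itgax made up the largest part of these sums. Taken singly, the groups overlapped for every marker of the list but Itgax and Cd83. Of the 10, 2 were called, the integrin gene Itgax (97.6 CPM in IL6 shRNA1 and 39.8 CPM in control libraries) and Cd83 (14.3 CPM in IL6 shRNA1 and 4.22 CPM in control libraries). That count of 2 was 6 without IL6 shRNA1 library 1 and 5 without control library 1, 1 without IL6 shRNA1 library 3, 4 or 5 or control library 4, and 0 without IL6 shRNA1 library 2 or control library 5. It was 5 with DESeq2, and 0 with no low-count filter, the replicate block, the covariate or the 3 farthest libraries left out. Cd83 lost its call in 6 of the 10 single omissions, and Zbtb46, a transcription factor gene of dendritic cells, had a log2 fold change of -0.09. Of 4 tested neutrophil markers, 0 were called by edgeR (0 higher and 0 lower at an unadjusted p under 0.05) and 1 by DESeq2, with a median log2 fold change of 0.19 and sums of 39.7 to 64.1 CPM in IL6 shRNA1 and 18.4 to 63.6 CPM in control libraries. Of 5 pan-leukocyte genes 1 was called, and their sums were 377 to 733 CPM in the IL6 shRNA1-labelled libraries and 167 to 499 CPM in control libraries. That count of 1 was 4 with DESeq2 and without IL6 shRNA1 library 1, 5 without control library 1, 2 with a filter of 1 CPM in 5 libraries, and 0 in the other 8 single omissions and with no low-count filter, the replicate block, the covariate or the 3 farthest libraries left out.

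Markers of T cells and natural killer cells were present at low levels and mostly not called. Over all genes tested, 5.62% were called higher, and 2335 of 15064 were higher at an unadjusted p under 0.05. Of 16 T cell markers, 0 were called at an adjusted p under 0.05 in edgeR (7 higher and 0 lower at an unadjusted p under 0.05) and 1 in DESeq2. Their sums were 62.5 to 108 CPM in the IL6 shRNA1-labelled libraries and 45.7 to 84.4 CPM in control libraries. Of the 16, 15 had positive fold changes, with a median log2 fold change of 0.93. The exception was Trac, at 24.7 CPM in IL6 shRNA1 and 29.5 CPM in control libraries, which was singled out after its value was seen. Trac had the highest mean of the 16 markers in both groups and so weighs most in their sums. Cd3e was at 2.82 CPM in IL6 shRNA1 and 1.45 CPM in control libraries, Cd4 at 13.1 CPM in IL6 shRNA1 and 9.13 CPM in control libraries and Cd8a at 7.54 CPM in IL6 shRNA1 and 3.99 CPM in control libraries. Cd4 and Cd8a lie on chromosome 6, as Lag3 does, where the median log2 fold change was -0.23. The part of that shift in their values was not tested. Of 4 regulatory T cell markers 1 was called, the IL-2 receptor gene Il2ra (9.37 CPM in IL6 shRNA1 and 3.45 CPM in control libraries; edgeR adjusted p = 0.0495), a call that ended in 7 of the 10 fits with 1 library left out, while Foxp3 was at 1.68 CPM in IL6 shRNA1 and 1.39 CPM in control libraries (0.781), and the sums were 14.2 to 26.4 CPM in IL6 shRNA1 and 4.97 to 19.9 CPM in control libraries. Of 9 tested genes of natural killer and cytotoxic cells 0 were called by edgeR (1 higher and 0 lower at an unadjusted p under 0.05) and 1 by DESeq2, with a median log2 fold change of 0.92. The sums were 9.51 to 34.3 CPM in the IL6 shRNA1-labelled libraries and 2.14 to 28.3 CPM in control libraries. Gzmb was at 2.22 CPM in IL6 shRNA1 and 1.15 CPM in control libraries, Prf1 at 1.86 CPM in IL6 shRNA1 and 1.04 CPM in control libraries and Ifng, the gene of interferon gamma, at 0.756 CPM in IL6 shRNA1 and 0.374 CPM in control libraries. Ncr1, a receptor gene of natural killer cells, had 0 to 24 counts.

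With the mean centred log2 CPM of the pan-leukocyte genes as a covariate, none of the 10 checkpoint genes was called by edgeR, and the smallest adjusted p among them was 0.547, for Cd80. The log2 fold changes became 0.48 for Cd80, 0.32 for Cd86 and 0.20 for Havcr2, and -0.04 for Cd274. Those of Pdcd1lg2 (-0.12), Pdcd1 (-0.46), Tigit (-0.46) and Vsir (-0.01) turned negative as well. The score itself ran from -0.19 to 0.83 in the IL6 shRNA1-labelled libraries and from -1.47 to 0.29 in control libraries, so it shares variance with the group, and the effects of both cannot be told apart with 10 libraries. Over all genes, 82 were called in that fit, against 1775 without the covariate.

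Set against the summed macrophage and monocyte markers of the same library, the checkpoint genes mostly overlapped between the groups. Of 20 ratios, each gene to the pan-leukocyte and to the macrophage sum, 0 were higher and 1 was lower without overlap. Cd86 was at 0.590% to 0.854% of the macrophage sum in the IL6 shRNA1-labelled libraries and at 0.430% to 0.681% in control libraries. Havcr2 was at 0.702% to 1.03% in IL6 shRNA1 and 0.667% to 0.953% in control libraries, and Cd274 at 0.544% to 1.04% in IL6 shRNA1 and 0.397% to 0.928% in control libraries. Vsir was the 1 ratio without overlap, at 2.88% to 3.28% of the macrophage sum in the IL6 shRNA1-labelled libraries and 3.33% to 4.60% in control libraries. By this ratio 31.1% of all genes tested were lower and 0.159% higher without overlap, so Vsir is not set apart from other genes by it.

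**Figure D3:**
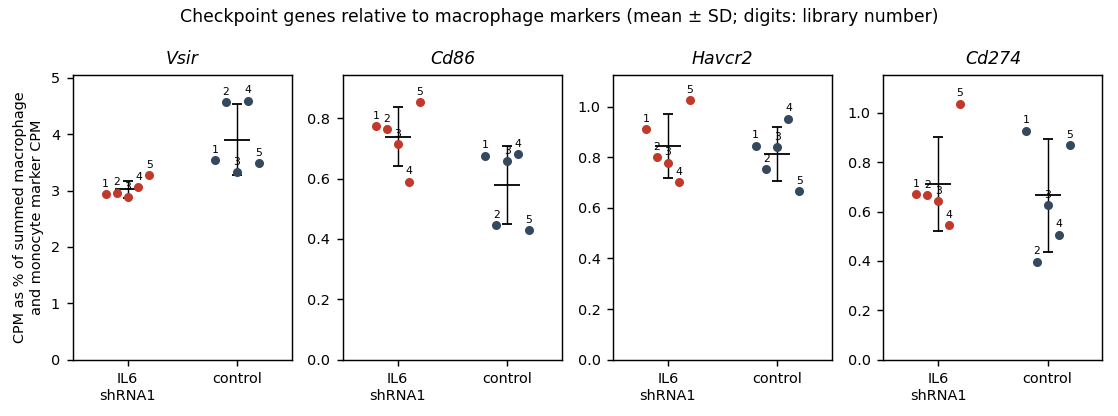
Each panel gives the CPM of 1 gene as a percentage of the summed CPM of the 15 macrophage and monocyte markers, on a linear axis from 0, with a point per library and the mean with its SD (n = 5 per group). The groups overlap for Cd86, Havcr2 and Cd274, and the IL6 shRNA1-labelled libraries lie below the controls for Vsir.

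Other genes of the same signalling system were called in small numbers. The share over all 15064 genes tested was 5.62% called higher and 6.16% lower. At an unadjusted p under 0.05, 2335 of them were higher and 2358 lower. Of 13 partner ligands and receptors, 1 was called higher, Lgals9, and 0 lower (4 higher and 1 lower at an unadjusted p under 0.05), with a median log2 fold change of 0.39. Of 16 other co-inhibitory genes that passed the filter, 3 were called higher and 0 lower (8 higher and 1 lower at an unadjusted p under 0.05), with a median of 0.62. The 3 called were the collagen receptor gene Lair1 (47.5 ± 12.8 CPM in IL6 shRNA1 and 18.8 ± 9.38 CPM in control libraries; SD, n = 5), Sirpa, the receptor of the CD47 signal that restrains phagocytosis (198 ± 24.4 CPM in IL6 shRNA1 and 133 ± 25.2 CPM in control libraries), and Cd200, the ligand of an inhibitory myeloid receptor (101 ± 17.99 CPM in IL6 shRNA1 and 54.9 ± 19.5 CPM in control libraries). The gene of that receptor, Cd200r1, was the 1 lower, at 6.35 ± 0.92 CPM in IL6 shRNA1 and 8.24 ± 0.83 CPM in control libraries. Its groups did not overlap in CPM, and it was not called (edgeR adjusted p = 0.0884). Of 11 co-stimulatory genes that passed, 0 were called by edgeR at an adjusted p under 0.05 (4 higher and 0 lower at an unadjusted p under 0.05) and 2 by DESeq2, with a median of 0.70. Lgals9 stayed called with each single library left out, but not with the replicate block (adjusted p = 0.0651), without the 3 farthest libraries (0.125) or with the covariate (0.328). Sirpa and Lair1 lost their calls in the same 3 fits, and Cd200 in the last 2 of them. Lair1 and Cd200 also lost theirs with no low-count filter. With 1 library left out, Sirpa lost its call without IL6 shRNA1 library 5 (adjusted p = 0.0512) or control library 2 or 5 (0.0512 and 0.0507). Lair1 and Cd200 lost theirs in 7 of the 10 such omissions each. The most abundant co-stimulatory genes were Icosl, the ligand gene of ICOS (18.2 ± 5.14 CPM in IL6 shRNA1 and 7.35 ± 4.15 CPM in control libraries; adjusted p = 0.0545), and Tnfrsf9, which encodes 4-1BB (12.4 ± 2.25 CPM in IL6 shRNA1 and 11.6 ± 2.95 CPM in control libraries; adjusted p = 0.787).

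A list of 15 genes around interferon signalling and PD-L1 also held Cmtm4, Cmtm6, Nlrc5, Ciita and Socs1, so it is wider than the pathway by which interferon induces PD-L1. Of the 15, 0 were called by edgeR at an adjusted p under 0.05 (5 higher and 0 lower at an unadjusted p under 0.05) and 2 by DESeq2, with 11 positive fold changes and a median of 0.22. The most abundant members of the list were Stat3 (312 ± 36.1 CPM in the IL6 shRNA1-labelled libraries, 336 ± 23.2 CPM in control libraries; SD, n = 5; adjusted p = 0.431) and the kinase gene Jak1 (253 ± 37.1 CPM in IL6 shRNA1 and 267 ± 33.5 CPM in control libraries; adjusted p = 0.682). Irf1, which acts on the PD-L1 promoter, was at 88.7 ± 18.5 CPM in IL6 shRNA1 and 62.8 ± 29.4 CPM in control libraries (adjusted p = 0.281); it was picked for its role and lies outside the naming rule.

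**Figure D4:**
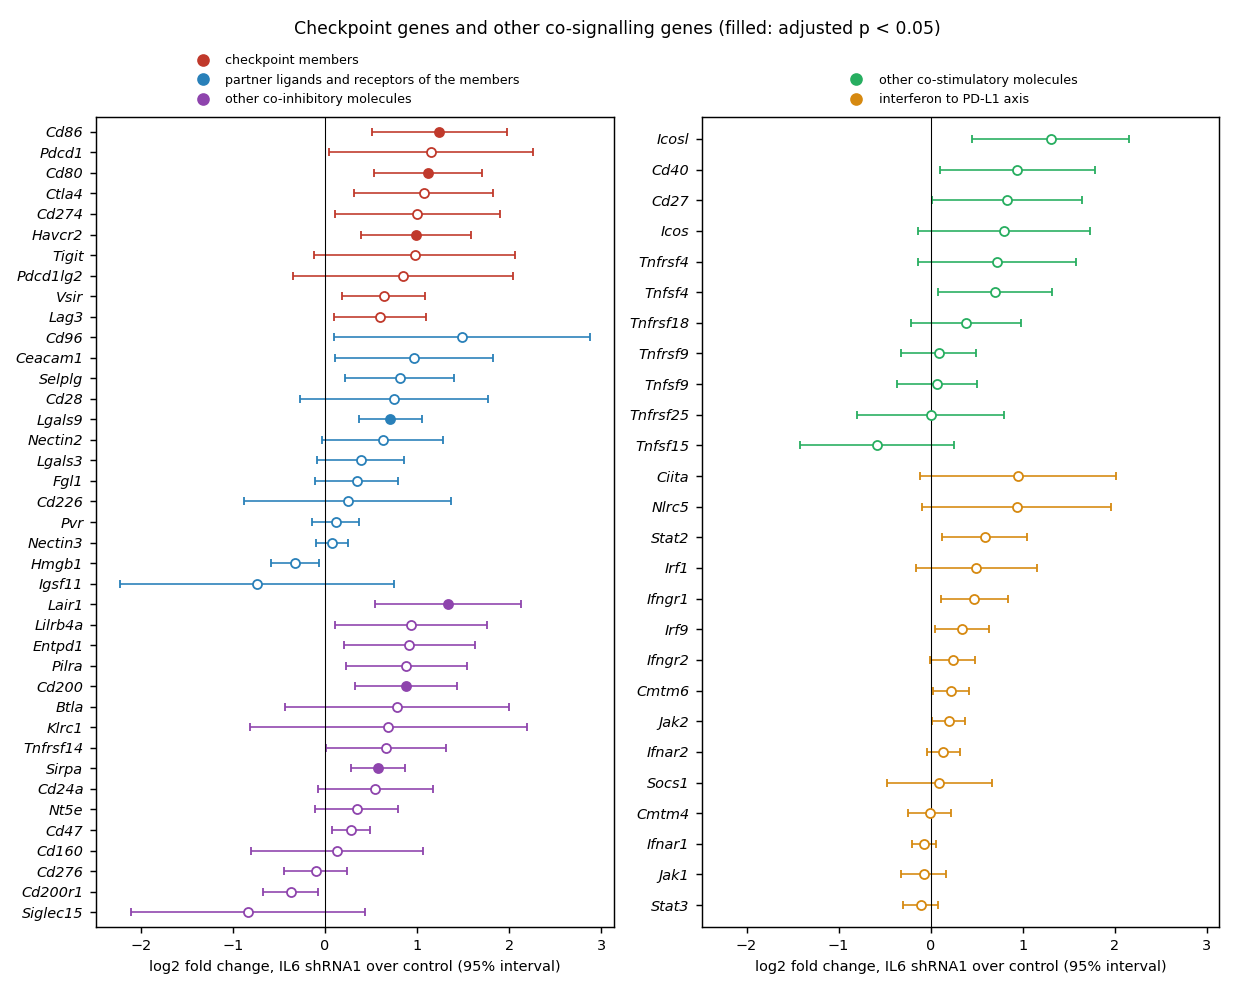
Points are log2 fold changes of IL6 shRNA1 over control with 95% intervals, for the 10 checkpoint genes and the tested genes of 4 related lists, and filled points have an edgeR adjusted p under 0.05. Cd80, Cd86 and Havcr2 are filled among the checkpoint genes, Lgals9 among their partners and Lair1, Sirpa and Cd200 among the other co-inhibitory genes.

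Among 11209 genes that averaged 5 CPM or more, those whose library pattern was most like that of Cd274 were Itgal, Aoah, Ifi203, Itgae and Nlrc5, by the root mean square difference of centred log2 CPM over the 10 libraries (0.09 to 0.19). Itgal encodes the integrin chain of LFA-1 on leukocytes, Itgae the CD103 chain, and Nlrc5 the activator of MHC class I genes. The genes most like Cd86 were Fcgr2b, Lilr4b, Ctss, Icosl and Adgre1 (0.12 to 0.15). Fcgr2b encodes the inhibitory Fc receptor, Ctss the protease cathepsin S of antigen-presenting cells, and Lilr4b has close paralogs. Itgal, the nearest gene to Cd274, was at 38.7 CPM in IL6 shRNA1 and 19.03 CPM in control libraries (edgeR adjusted p = 0.0928), and Fcgr2b, the nearest to Cd86, at 99.3 CPM in IL6 shRNA1 and 40.7 CPM in control libraries (0.0313). The distance covers the difference between the groups, so genes picked by it have fold changes near those of Cd274 and Cd86 by construction. The levels and p-values of these genes are descriptions, not separate results. Fcgr2b lies on chromosome 1, as Pdcd1 and Ctla4 do.

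Promoters were looked at because the 10 genes shared many of their high and low libraries, which was not shown to be particular to them. RefSeq promoters of 300 bases (build GRCm38.p6, 250 bases before and 50 after the start) were found for 8 of the 10 genes, all but Cd86 and Lag3. Those of Cd80 (from 38458683) and Ctla4 (from 60908775) lie inside the genes as counted, which start at 38455561 and 60887000. On either strand, the AP-1-like pattern TGANTCA, which allows any base at its centre, was in those of Cd80 and Havcr2. That is 2 of 8, against 7.81% of 32851 promoters. Both matches read TGATTCA, without the C or G that the AP-1 consensus has at its centre. The interferon-response core GAAANNGAAA and the STAT motif TTCNNNGAA were in 0 of the 8, against 3.44% and 8.30% of all promoters. The NFAT core GGAAA was in 5 of 8 (61.3% of all), the NF-kB motif GGGNNNNNCC in 2 (50.8%) and the PU.1 core GAGGAA in 3 (28.3%). These matches are descriptions of letters, not of binding. The promoters of Cd80 (chr16:38458683-38458982, + strand) and Havcr2 (chr11:46454681-46454980, + strand), genes called higher, and of Cd274 (chr19:29367188-29367487, + strand), the PD-L1 gene, are shown 5′ to 3′, with TGANTCA and GGAAA matches in capitals. Each holds 1, 1 and 0 matches of TGANTCA, and Cd274 holds 2 of GGAAA.
Cd80: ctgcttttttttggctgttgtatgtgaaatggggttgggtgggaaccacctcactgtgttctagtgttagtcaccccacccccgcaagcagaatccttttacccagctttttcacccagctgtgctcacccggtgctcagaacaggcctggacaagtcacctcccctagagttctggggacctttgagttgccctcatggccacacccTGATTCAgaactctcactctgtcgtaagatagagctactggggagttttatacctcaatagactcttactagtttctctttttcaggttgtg
Havcr2: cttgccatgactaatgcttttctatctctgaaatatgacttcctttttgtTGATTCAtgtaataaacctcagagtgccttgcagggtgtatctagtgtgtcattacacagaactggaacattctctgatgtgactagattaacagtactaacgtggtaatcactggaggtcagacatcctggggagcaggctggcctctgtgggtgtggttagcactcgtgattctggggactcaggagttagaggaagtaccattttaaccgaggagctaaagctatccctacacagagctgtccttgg
Cd274: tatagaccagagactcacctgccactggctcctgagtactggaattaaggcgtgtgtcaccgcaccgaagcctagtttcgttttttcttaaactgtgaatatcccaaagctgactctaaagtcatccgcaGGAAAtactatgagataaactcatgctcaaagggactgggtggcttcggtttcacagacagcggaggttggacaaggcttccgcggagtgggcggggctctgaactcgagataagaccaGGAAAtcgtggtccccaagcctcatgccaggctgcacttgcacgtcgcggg

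**Figure D5:**
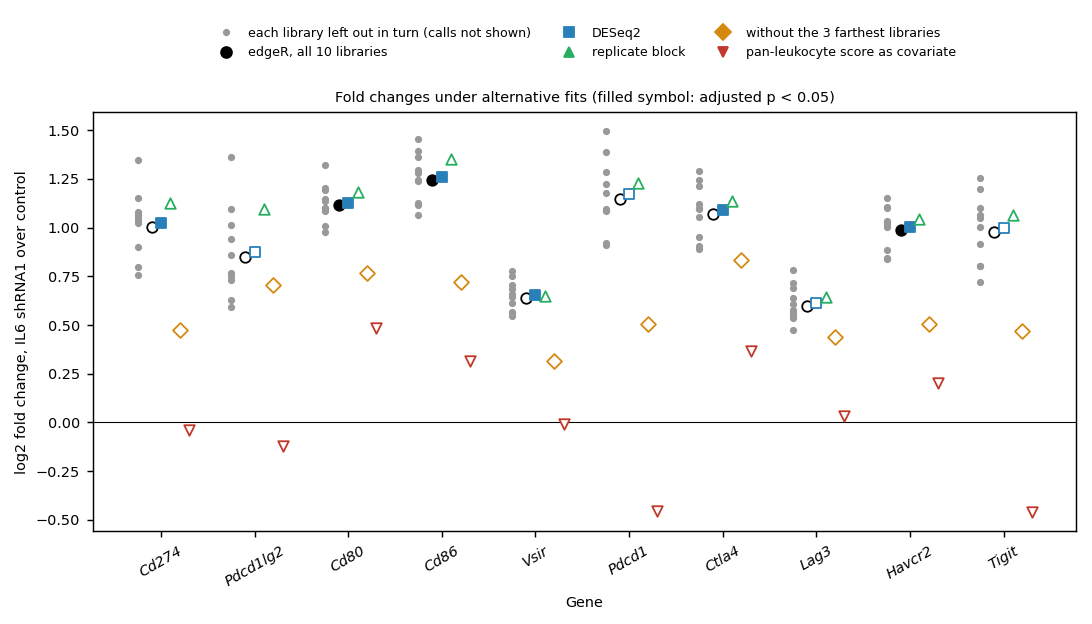
Symbols give the log2 fold change of IL6 shRNA1 over control for each of the 10 genes under the fit of all 10 libraries, DESeq2, the replicate block, the omission of the 3 farthest libraries and the pan-leukocyte covariate, and grey dots the omission of each library in turn. Every value lies above 0 except those of Cd274, Pdcd1lg2, Pdcd1, Tigit and Vsir with the covariate.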

How the data were processed

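The authors deposited raw gene counts as whole numbers, without normalization, and FPKM values for the same 55385 genes. The deposited FPKM values equalled count over length over column total, with one fixed length per gene, to within a relative deviation of 9.4e-07. Per the submitters' processing notes, the tools were STAR 2.7.0f, featureCounts of Subread 1.6.4, Trim Galore 0.6.6, FastQC 0.11.9 and SAMtools 1.11 with R 4.0.4, on builds mm10 and GRCm38. The strand setting is not given in the sources used here. Titles gave the groups, and all columns were used.

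The count analysis used edgeR 4.0.16 under R 4.3.3: filterByExpr by group (minimum count 10; 15064 genes kept), TMM factors, estimateDisp, glmQLFit with robust=TRUE and glmQLFTest, with Benjamini-Hochberg adjustment over all genes tested. The threshold for a call was an adjusted p under 0.05. The SE is the absolute log2 fold change over the square root of F. The fit was tested on simulated counts. Named genes were Il6, the 10 checkpoint genes, up to 6 called genes of each co-signalling list (with none called, the 2 most abundant), fixed cell markers and, for Cd274 and Cd86, the 5 genes nearest in pattern. Others were picked with their values known or for their role: the line markers Wt1, Krt8, Upk3b, Pax8, Epcam, Krt7, Krt18, Muc16 and Cdh1, and Zbtb46, Cd83, Il2ra, Trac, Irf1 and Cd200r1. A pair of listed genes is not reported here. No checkpoint gene fell below the filter, so the exact test planned for such genes was not needed. The members and lists were chosen with earlier results of these data known. Alternatives were DESeq2 1.42.0, DESeq2 size factors, other filters, a replicate block, omitted libraries and a pan-leukocyte covariate (the mean over its 5 genes). Pdcd1lg2 had the fewest counts of the 10 genes, 2 to 26 per library. Figures were drawn with Python 3.11.15 and matplotlib 3.10.9.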

Additional observations from a re-analysis of the deposited data

How the results depend on the processing

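Of 169 fold changes of the 10 genes under alternatives, 164 were positive. The 5 that turned negative came from the pan-leukocyte covariate: Cd274 (-0.037), Pdcd1lg2 (-0.12), Pdcd1 (-0.46), Tigit (-0.46) and Vsir (-0.0071), with edgeR adjusted p of 0.707 to 0.992; the cause was not tested. The same fit turned Il6 (-0.57), Irf1 (-0.26), Ptprc (-0.057), Cd3e (-0.16), Cd8a (-0.52), Foxp3 (-0.67), Gzmb (-0.60), Prf1 (-0.40), Krt8 (-0.094), Stat3 (0.029) and Jak1 (0.20), none of them called in any fit but Ptprc, and Jak1 (0.063) and Foxp3 (-0.057) also turned without the 3 farthest libraries. With 1 library left out, Tnfrsf9 ran from -0.0044 to 0.25 and Wt1 from -0.22 to 0.0012. The alternatives for these genes were chosen after the data were seen. The count of genes called, 1775 with all libraries, was 3005 with DESeq2, 755 with the replicate block, 212 without the 3 farthest libraries and 82 with the covariate. The count of checkpoint genes called, 3, was 6 with DESeq2, 1 with no low-count filter (Cd80), and 0 in the other 3 of these fits. With 1 library left out the count of genes ran from 864 to 2774 and that of checkpoint genes from 0 to 6. DESeq2 size factors in edgeR and a filter of 1 CPM in 5 libraries kept 3 each; Pdcd1lg2 had no value under that filter. With the replicate block, adjusted p was 0.0514 for Cd80, 0.108 for Cd86 and 0.111 for Havcr2. The labels give no pairing. Deviations of same-numbered libraries correlated at -0.28, -0.07, 0.11, 0.27 and -0.27 across genes. These few values of mixed sign cannot decide whether the numbers pair the samples. The FPKM alternative planned for genes under the filter was not run, since there were none. Pdcd1lg2, Tigit, Ctla4 and Cd80 had fewer than 100 counts in every library; the part of depth in their errors was not tested.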
